A study of Mus musculus with 4 samples.

Results

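The 9 genes described here encode T cell surface proteins, the kinase that works beneath them and checkpoint receptors: Cd3d, Cd3e, Cd3g, Cd4, Lck, Thy1, Pdcd1, Cd28 and Cd27. They were taken from the array by name: every gene probe whose name equals one of the 9 symbols was used, which gave 11 probes of 55681 and 9 genes of 36317. The symbols were put together by function but also chosen by measured values of these same arrays: which probes were above background, and that Pdcd1 was low with Epo. The detection flags below are therefore a description, and the counts and p-values of the 9 genes are not independent support for anything.

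The arrays measured 32D-EpoR cells, a mouse myeloid progenitor line that needs interleukin-3 to grow and that carries an added receptor for erythropoietin (Epo), the hormone of red cell formation. All cells were washed and kept in RPMI medium with 10% FBS and without the WEHI-conditioned medium that normally feeds them. The group with Epo then received Epo at 10 U/ml, and the group without Epo received none. The labels do not say for how long, or whether the line is 1 clone. Each group has 2 arrays, from 2 experiments on cells of different passages, and the small number of arrays limits the precision of every value. The arrays with Epo were brighter as a whole: their 75th percentile lay at 347 and 454 intensity units, against 224 and 250 without Epo. Without scaling the median log2 change of all 17554 genes tested was 0.684, and it was -0.062 after each array was set to its 75th percentile. A scaled change is thus a change relative to the other genes on the array, and unscaled values are given beside the scaled ones where they change a call named below.

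In a T cell, the CD3 chains carry the signal of the antigen receptor into the cell. CD4 binds the antigen-presenting molecule on the other cell and brings the kinase LCK to the receptor, where LCK phosphorylates the CD3 chains. CD28 and CD27 add a costimulatory signal, and PD-1, the product of Pdcd1, dampens it when a neighbouring cell shows PD-L1 or PD-L2. Thy1 is a lipid-anchored surface protein that marks mouse T cells and some stem and progenitor cells.

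The probes matter for these genes, because the label was made by priming on the poly(A) tail, which favours the 3′ end of a transcript. The last 30 bases (31 to 60, 5′ to 3′) of the 60-base probes that carry the canonical poly(A) signal are shown with that signal, AATAAA, in capitals, next to those of the Pdcd1 probe, which has none.
Cd3e: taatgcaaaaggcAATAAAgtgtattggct
Cd4 (A_55_P2013655): acagaaaAATAAAggctataAATAAAatgc
Lck: tgcctagcacacaccaggagctcAATAAAa
Thy1: aggaaagaaaactgcacAATAAAaccaagc
Cd28: tagcctgcAATAAAtatttattcattgact
Pdcd1: ccaacactggggtgttagaatctcctcatt
On the probe strand, 5 of the 11 probes held AATAAA, compared with 10.1% of all 55681 gene probes and 14% of the probes of the genes tested. All 5 were among the 7 probes bright enough to be tested, and 0 were among the other 4. A further pair of probes is shown whole, the Cd3d probe because the file places it across 232 bases of genome, so that it spans a splice junction, and the second Cd4 probe because it disagrees with the first.
Cd3d: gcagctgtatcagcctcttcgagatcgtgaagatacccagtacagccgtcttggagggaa
Cd4 (A_52_P383089): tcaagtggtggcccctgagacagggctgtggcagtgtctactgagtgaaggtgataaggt

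The array files place the probes on the mouse build mm9, each 60 bases long on the genome apart from the Cd3d probe. The Cd3e probe lies at chr9:44806828-44806887 on the minus strand, the Cd3d probe at chr9:44794171-44794402 on the plus strand and the Cd3g probe at chr9:44777868-44777927 on the minus strand. Both Cd4 probes are on the minus strand, A_55_P2013655 at chr6:124814711-124814770 and A_52_P383089 at chr6:124817706-124817765. They lie 2935 bases apart on the genome, and the first is the one nearer to the 3′ end. The Lck probe lies at chr4:129225614-129225673 (minus), the Thy1 probe at chr9:43856591-43856650 (plus), the Pdcd1 probe at chr1:95935064-95935123 (minus) and the Cd28 probe at chr1:60830144-60830203 (plus). The Cd27 probes lie 64 bases apart, at chr6:125183076-125183135 and chr6:125183200-125183259 (minus). Which exon or untranslated part each probe falls in was not analysed here. No probe of the 11 shares its sequence with another probe on the array.

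Detection came first. A spot is well above background when its signal exceeds its background by a margin that the scanner software sets. By that flag, Cd3d, Cd3e, Lck, Thy1 and 1 of the 2 Cd4 probes were detected on all 4 arrays. Pdcd1 was detected on neither array with Epo and on both without, and Cd28 on both arrays with Epo and on neither without. The Cd27 probe A_55_P2164428 was detected on 1 array, without Epo, and Cd3g, the other Cd27 probe and the other Cd4 probe on none. The dimmest of the single-spot probes that counted as detected was Cd28, at 25.3 intensity units with Epo, and the brightest that did not was again Cd28, at 18 without Epo. Testing required detection on both arrays with Epo or both without, and 7 of the 9 genes met that. Among 308 negative control spots, the 99th percentile was 21.3 and 9.57 intensity units with Epo, against 24.4 and 25.1 without Epo.

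**Figure D1:**
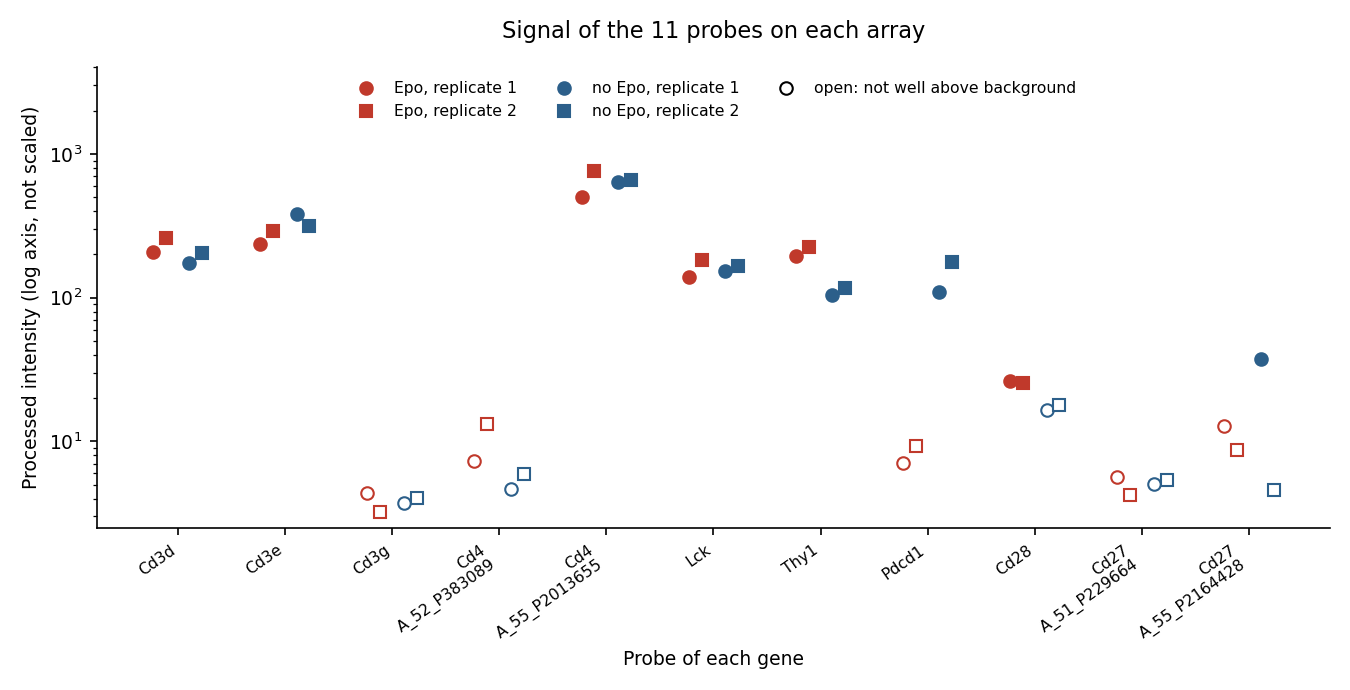
Processed intensity (log axis, not scaled between arrays) of the 11 probes of the 9 genes on each array, with Epo in red and without Epo in blue, replicate 1 as circles and replicate 2 as squares; open symbols were not well above background. Pdcd1 lies below 10 with Epo and at 109 and 176 without Epo, while Cd3d, Cd3e, Lck, Thy1 and 1 of the Cd4 probes are detected on all 4 arrays.

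Over the 7 genes tested, limma called 5 lower with Epo (Pdcd1, Cd3e, Cd4, Lck and Cd3d) and 0 higher, with a median log2 change of -0.75. Of all 17554 genes tested, 14.3% were called lower and 13.1% higher, 27.4% in all. At an unadjusted p under 0.05 the counts over the 7 genes were also 5 lower and 0 higher, beside 7502 of all 17554 genes in either direction. That share also stands beside the unadjusted counts of the other lists below. Without scaling 1 gene was called lower, Pdcd1, and 1 higher, Thy1, beside 2.07% and 46.9% of all genes. Of the 5 falls, only that of Pdcd1 was called both with and without scaling. On the scaled signals both arrays with Epo lay below both without for those 5 genes, as for 38.4% of all genes tested, and above both for Thy1 alone, as for 30.4%. Since the genes were chosen with these results known, nothing is read from the counts.

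Pdcd1 showed the widest gap. Its processed intensity was 7.1 and 9.29 with Epo, against 109 and 176 without Epo. The groups did not overlap, and both values with Epo were under the 99th percentile of the negative controls on their array. Before any background correction the mean spot signal was 36.0 and 35.3 with Epo, against 129 and 190 without Epo, over a local background of 17 on all 4 arrays. The log2 scaled signal was 2.65 ± 0.0010 (SD, n = 2) with Epo and 7.49 ± 0.38 (SD, n = 2) without Epo. Neither array with Epo had the probe well above background, so its size is given as a bound. On the scaled processed signals Pdcd1 was at least 13.1-fold lower with Epo (limma adjusted p 0.00313). The bound sets the mean of the brighter group against the lowest signal that still counted as well above background on each dim array. The fitted log2 change of -4.84 rests in part on background, and it was -4.09 without scaling. With another background correction it was -2.09, smaller than the bound of -3.72 on the log2 scale, so the bound holds for the main processing only. Of 13 alternatives 12 kept the call, and it was lost where dim probes were not filtered (limma adjusted p 0.108). Without scaling the limma adjusted p was 2.79e-34. On that scale the p-values of the genes named here followed the size of the change alone, not the spread of each gene. A call without scaling, here and below, is thus a cutoff on size. Detection on neither array with Epo and on both without was seen in 46 of the 17554 genes tested, or 0.262%.

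The genes whose pattern was most like that of Pdcd1 were found by the distance between log2 signals over the 4 arrays, each gene set to a mean of 0. The nearest were Kctd15 (distance 0.66), Igkv4-53 (0.872) and Vmn2r121 (1.03). Each was detected on neither array with Epo and on both without. Because the genes were picked for their likeness to Pdcd1, this pattern and their falls are a description only. On the scaled signals the fall with Epo was at least 5.93-fold for Kctd15, at least 7.48-fold for Igkv4-53 and at least 5.17-fold for Vmn2r121.

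The CD3 genes did not share a detection pattern. Cd3e, the chain needed to assemble the receptor with its partners, gave 237 and 291 intensity units with Epo, against 380 and 314 without Epo. Both arrays with Epo were below both arrays without. The log2 scaled signal was 7.66 ± 0.065 (SD, n = 2) with Epo and 8.80 ± 0.31 (SD, n = 2) without Epo, a fall of 2.21-fold (log2 change -1.14 ± 0.18 SE, limma adjusted p 0.0171). Without scaling the change was -0.40 and not called (adjusted p 0.283; the 14 alternatives ran between 0.00566 and 0.283).

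Cd3d gave 207 and 259 intensity units with Epo, against 174 and 203 without Epo, so before scaling both arrays with Epo were the brighter ones. After scaling the order turned: 7.48 ± 0.045 (SD, n = 2) with Epo and 7.93 ± 0.046 (SD, n = 2) without Epo. The log2 change of -0.45 ± 0.11 (SE) was just past the threshold (limma adjusted p 0.0492). It was 0.30 without scaling, and 5 of 14 alternatives kept the call (adjusted p between 0.0278 and 0.417), none of them among the 4 that leave out 1 array. Cd3g stayed near the floor, at 4.35 and 3.21 intensity units with Epo, against 3.7 and 4.04 without Epo. The negative controls had medians of 4.91 and 3.55 with Epo, against 4.27 and 4.69 without Epo. Cd3g was thus not well above background, while Cd3d, whose start lies 1355 bases from it on the opposite strand in GRCm38.p6, was detected on every array. Ube4a, the protein-coding gene next to Cd3g on the other side, had a log2 change of -0.10 ± 0.14 (SE, limma adjusted p 0.612).

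The coreceptor gene Cd4 was read by probes that did not give the same picture. The probe nearer to the 3′ end, A_55_P2013655, gave 505 and 756 intensity units with Epo, against 633 and 658 without Epo. The raw intensities overlapped between the groups. The other probe is printed in 10 spots, whose medians were 7.56 and 13.6 with Epo, against 4.21 and 4.57 without Epo. On none of the 4 arrays were most of these spots well above background. With Epo 1 spot of replicate 1 stood at 87.4 and was marked as an outlier by the scanner software, so it was left out, and 2 of 10 spots of replicate 2 were well above background. Without Epo 0 of 10 spots were so on either array.

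**Figure D2:**
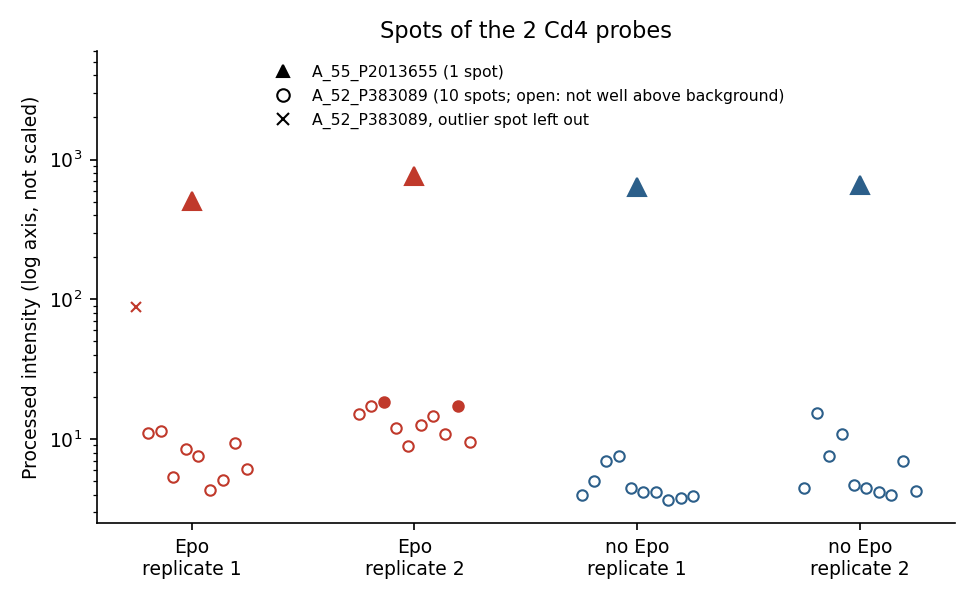
Processed intensity (log axis, not scaled between arrays) of the spots of the 2 Cd4 probes on each array, with Epo in red and without Epo in blue; triangles are the single spot of A_55_P2013655, circles the 10 spots of A_52_P383089 (open: not well above background) and the cross its outlier spot. The triangles lie between 505 and 756 on every array, while the circles do not rise above 18.5.

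Cd4 was tested through A_55_P2013655. Its log2 scaled signal was 8.90 ± 0.14 (SD, n = 2) with Epo and 9.71 ± 0.077 (SD, n = 2) without Epo, with no overlap between the groups. The fall was 1.75-fold (log2 change -0.81 ± 0.13 SE, limma adjusted p 0.0175). Without scaling the change was -0.06 and not called (adjusted p 0.872), and leaving out the first Epo array ended the call too (0.0856). The 14 alternatives ran between 0.00899 and 0.872. The other probe, not well above background in either group, had a log2 change of 0.15 when no filter was set. Gpr162, the gene that lies next to Cd4 past its 3′ end, had a log2 change of -0.80 ± 0.11 (SE, limma adjusted p 0.0128), close to that of Cd4, and -0.05 without scaling. Its call was lost there and without either Epo array. Lag3, the inhibitory receptor gene on the other side of Cd4, had one of 0.05 ± 0.58 (SE, adjusted p 0.955). The neighbours come from the order of genes in the RefSeq table of GRCm38.p6, and a part of Gpr162 in the Cd4 signal was not tested.

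Lck, the kinase that starts signalling at the receptor, gave 140 and 182 intensity units with Epo, against 153 and 167 without Epo. The raw values overlapped, with both arrays without Epo between those with Epo. After scaling they were 6.95 ± 0.0053 (SD, n = 2) with Epo and 7.70 ± 0.028 (SD, n = 2) without Epo. That is a fall of 1.68-fold (log2 change -0.75 ± 0.11 SE, limma adjusted p 0.0142). Without scaling the change was 0.00, and that ended the call (adjusted p 0.993), as did leaving out the first or the second Epo array (0.0721 and 0.07). The 14 alternatives ran between 0.00968 and 0.993. Of 7 other kinases of its family, Fyn and Lyn were tested and differed by -0.14 ± 0.11 and 0.07 ± 0.11 (SE) on the log2 scale, with limma adjusted p of 0.409 and 0.696. For both the unscaled change was above 0, at 0.61 and 0.81, and there Lyn was called higher (limma adjusted p 0.0279) but Fyn was not. Of all genes 46.9% were called higher without scaling.

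Thy1 was the 1 gene of the 7 with a positive change. It gave 195 and 225 intensity units with Epo, against 105 and 116 without Epo, with no overlap. Relative to the other genes most of that gap was gone: the log2 scaled signal was 7.34 ± 0.13 (SD, n = 2) with Epo and 7.16 ± 0.022 (SD, n = 2) without Epo. The change of 0.18 ± 0.13 (SE) did not pass the threshold (limma adjusted p 0.34). Without scaling it was 0.92 with an adjusted p of 0.0123 (range 0.0123 to 0.818 over 14 alternatives), or 0.24 above the median of all genes on that scale.

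The costimulatory receptors were dim. Cd28 gave 26.2 and 25.3 intensity units with Epo, against 16.6 and 18 without Epo, and passed into detection on the brighter arrays. After scaling the groups overlapped, with log2 signals of 4.54 and 4.10 with Epo, against 4.51 and 4.46 without Epo. The log2 change was -0.17 ± 0.18 (SE, limma adjusted p 0.521), it was 0.58 without scaling, and no fold is given because the bound lies under 1. The pattern of detection on both arrays with Epo and neither without was seen in 575 genes tested, or 3.28%. Cd27 had 12.8 and 8.74 intensity units with Epo, against 37.3 and 4.55 without Epo, at the probe A_55_P2164428. The 2 arrays without Epo lay on either side of those with Epo, so the replicates differed more than the groups. At the other Cd27 probe the signal was 5.66 and 4.23 with Epo, against 5.03 and 5.4 without Epo. All 4 values were near those of the negative controls, and Cd27 was not tested.

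**Figure D3:**
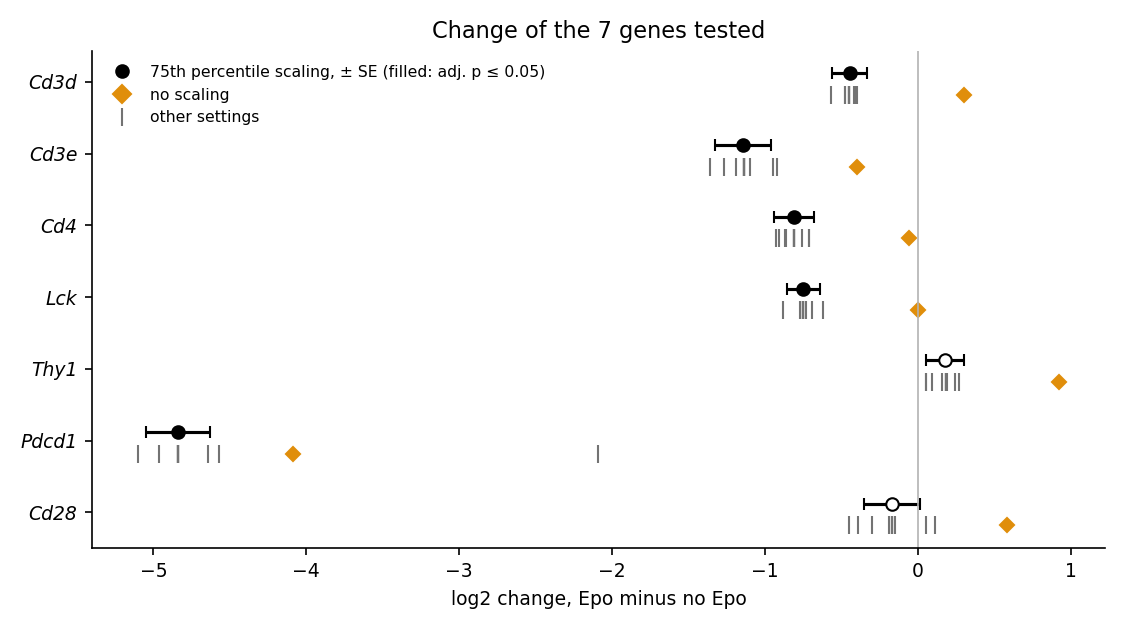
Log2 change (Epo minus no Epo) of the 7 genes tested, with the 75th percentile scaling and its SE as circles (filled where the limma adjusted p is at most 0.05), without scaling as diamonds and under the other settings as ticks. The fitted change of Pdcd1 stays between -5.10 and -2.09, whereas Cd4 and Lck lie at -0.06 and 0.00 without scaling and Cd3d and Cd28 turn to the right of 0.

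RefSeq promoter sequences (GRCm38.p6) were at hand for 6 of the 9 genes, with 7 start sites in all (Lck has 2), and none was used for Cd4, Thy1 or Cd28. The 250 bases before each start were searched on both strands for TTCNNNGAA, the spaced palindrome that STAT5, the transcription factor downstream of the Epo receptor, can bind. Only the Cd3d promoter held it, from 197 to 189 bases before the start, beside 7.02% of 32851 promoters. GTAAACA, a core bound by FOXO factors, was in 0 of the 7 (3.17% of all). The core bound by GATA1 and its relatives, searched as AGATAA, was in the promoter of Cd3g (9.99% of all). No promoter of these genes held more than 1 of the motifs, so their matches do not overlap. A match or its lack in this window is a description only. The Pdcd1 promoter, from the gene with the widest gap, and the Cd3d promoter, with its match in capitals, read as follows, 5′ to 3′.
Pdcd1 (chr1:94052554-94052803, minus strand): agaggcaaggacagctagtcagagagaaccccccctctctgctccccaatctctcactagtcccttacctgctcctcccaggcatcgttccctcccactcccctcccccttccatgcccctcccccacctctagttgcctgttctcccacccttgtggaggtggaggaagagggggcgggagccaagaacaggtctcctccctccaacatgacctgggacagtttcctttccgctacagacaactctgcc
Cd3d (chr9:44981536-44981785, plus strand): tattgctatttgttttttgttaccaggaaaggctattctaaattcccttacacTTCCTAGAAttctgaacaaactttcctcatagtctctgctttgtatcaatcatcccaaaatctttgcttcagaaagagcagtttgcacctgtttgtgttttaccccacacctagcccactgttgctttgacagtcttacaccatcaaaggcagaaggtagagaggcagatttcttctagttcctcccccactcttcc
The 2 sequences differ in base composition, with 60.4% G and C in that of Pdcd1 and 41.2% in that of Cd3d.

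The signal of these genes came without that of many other T cell genes. Of 10 other T cell surface and receptor genes, all on the array, 7 were detected on no array: Cd247, Cd8a, Cd8b1, Cd2, Cd5, Trat1 and Ptcra. Among 14 T cell transcription factors 7 were detected on no array, Tcf7, Lef1 and Bcl11b among them, and 6 on all 4, Runx3 and Nfatc1 among them. Of 28 genes of signalling just below the receptor 19 were detected on all 4. Of 15 myeloid progenitor markers 13 were detected on all 4 arrays, including Mpo, Elane, Prtn3 and Ctsg, while the receptor gene Kit was on none. By these markers the cells carried most myeloid genes of their label, and T cell genes were detected only in part. A probe not well above background does not show that its gene is silent. In bulk samples, more or less RNA per cell and more or fewer cells with it cannot be told apart.

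Several ligand genes of checkpoint and costimulatory receptors were higher with Epo, most of them for receptors other than those described above. Of 18 ligand genes of checkpoint and costimulatory receptors 10 were tested, of which limma called 7 higher with Epo and 0 lower, beside 13.1% higher and 14.3% lower of all genes. The median log2 change was 0.94, against -0.062 for all genes, and 1 ligand was lower at an unadjusted p under 0.05. Among the 7, only Cd274 and Pdcd1lg2 encode ligands of a receptor described above, PD-1. The others were Pvr, Tnfsf14 (1.60), Icosl (0.96), Tnfsf9 (0.92) and Cd48 (0.65). The 3 not called, Tnfsf4, Lgals9 and Cd80, had negative changes, and the other 8 of the 18 were detected on no array. Cd274, which encodes the PD-1 ligand PD-L1, had log2 scaled signals of 9.07 and 8.73 with Epo, against 7.21 and 7.12 without Epo. The groups did not overlap, and the rise was 1.73 ± 0.16 (SE, limma adjusted p 0.00639). The other PD-1 ligand gene, Pdcd1lg2, had 9.48 and 9.37 with Epo, against 7.91 and 7.99 without Epo, a rise of 1.47 ± 0.12 (SE, limma adjusted p 0.0054). Pvr, a ligand of the receptors TIGIT and CD226, rose most in the list, by 2.17 ± 0.20 (SE, limma adjusted p 0.00656). All 3 were also called without scaling, where 46.9% of all genes were called higher and the median log2 change was 0.684. Their log2 changes there were 2.48 for Cd274, 2.22 for Pdcd1lg2 and 2.91 for Pvr. Each lost its call under 1 of 14 alternatives, the one with no filter on dim probes. Tnfsf4 had a log2 change of -1.09 ± 0.31 (SE, limma adjusted p 0.0624) and was called lower in 7 of 14 alternatives (adjusted p between 0.0115 and 0.354). Lgals9 had one of -0.23 ± 0.18 (SE, limma adjusted p 0.378).

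Cd80, a ligand of CD28, had log2 scaled signals of 9.72 and 9.49 with Epo, against 10.07 and 9.51 without Epo, and did not pass (-0.18 ± 0.23 SE, limma adjusted p 0.577), with a change of 0.56 without scaling. Cd86, the other ligand of CD28, and Cd70, the ligand of CD27, were detected on no array. Pdcd1lg2, Tnfsf14, Icosl, Tnfsf9, Cd48, Cd80, Tnfsf4 and Lgals9, like the neighbouring genes named above, were singled out after their values were seen.

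Other receptors of the same kinds were called about as often as all genes, of which 14.3% were lower and 13.1% higher. Without scaling 2.07% of all genes were called lower and 46.9% higher. Of 6 inhibitory receptors tested 1 fell and 0 rose (2 and 0 at an unadjusted p under 0.05), with a median of -0.03, while without scaling 0 fell and 3 rose. Havcr2, which encodes TIM-3, was the fall, at -0.66 ± 0.12 (SE, limma adjusted p 0.0201), but lay at 0.08 without scaling. It kept its call in 8 of 14 alternatives (adjusted p 0.0123 to 0.831) and in none that leaves out 1 array. Ctla4, the neighbour of Cd28 on the chromosome, was detected on no array. Of 5 other costimulatory receptors 1 rose and 1 fell, with a median of -0.11, and without scaling 1 rose and 0 fell. Slamf1 rose by 0.88 ± 0.12 (SE, limma adjusted p 0.0113), and Tnfrsf14, the receptor for LIGHT, fell by 1.02 ± 0.21 (SE, limma adjusted p 0.0296). Leaving out the second Epo array ended the call of Slamf1, and leaving out the first Epo array or the second array without Epo ended that of Tnfrsf14. Tnfrsf14 lay at -0.28 without scaling and was not called there.

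Of 20 genes tested that act just below the antigen receptor, 3 rose and 5 fell, with a median of -0.03, beside 13.1% and 14.3% of all genes. The shares of all genes without scaling were 46.9% and 2.07%. Without scaling 10 rose and 1 fell, and with 1 array left out fewer were called than with all arrays, as over all genes. Prkcq, the protein kinase C isoform of T cell activation, rose by 1.35 ± 0.16 (SE, limma adjusted p 0.0101), and Cbl, a ubiquitin ligase that limits signalling, by 0.61 ± 0.12 (SE, limma adjusted p 0.0281). The call of Cbl was lost whichever array was left out. Txk, a TEC family kinase, was detected on neither array with Epo and on both without. Its 24.8 and 23.4 intensity units without Epo lay near the 99th percentile of the negative controls there, 24.4 and 25.1. On the scaled signals Txk was at least 2.29-fold lower with Epo (limma adjusted p 0.0228). With another background correction its log2 change was -0.89, smaller than that bound. Ptpn22, a phosphatase that acts on LCK, fell by 0.93 ± 0.12 (SE, limma adjusted p 0.0103), and by 0.19 without a call where arrays were not scaled. Of 2 tested T cell surface genes limma called 0 (1 was higher at an unadjusted p under 0.05). Cd6 had a log2 change of 0.93 ± 0.26 (SE, limma adjusted p 0.0597), and it was called in 6 of 14 alternatives. Its value was 1.68 without scaling but 0.04 with the mean of its kept probes, which thus disagree. Ptprc had a change of 0.33 ± 0.18 (SE, adjusted p 0.223), and one of 1.08 without scaling, where it was called. Of 6 tested T cell transcription factors 3 fell and 0 rose, with a median of -0.61. Without scaling 0 fell and 2 rose, and with the mean of kept probes 1 fell. With 1 array left out fewer fell than with all arrays, as over all genes. Runx3 fell by 1.33 ± 0.19 (SE, limma adjusted p 0.013; not called without scaling, at -0.59) and Nfatc1 by 0.64 ± 0.12 (SE, limma adjusted p 0.0243). Nfatc1 lay at 0.11 without scaling, kept its call in 7 of 14 alternatives (adjusted p 0.0149 to 0.783) and lost it whichever array was left out.

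**Figure D4:**
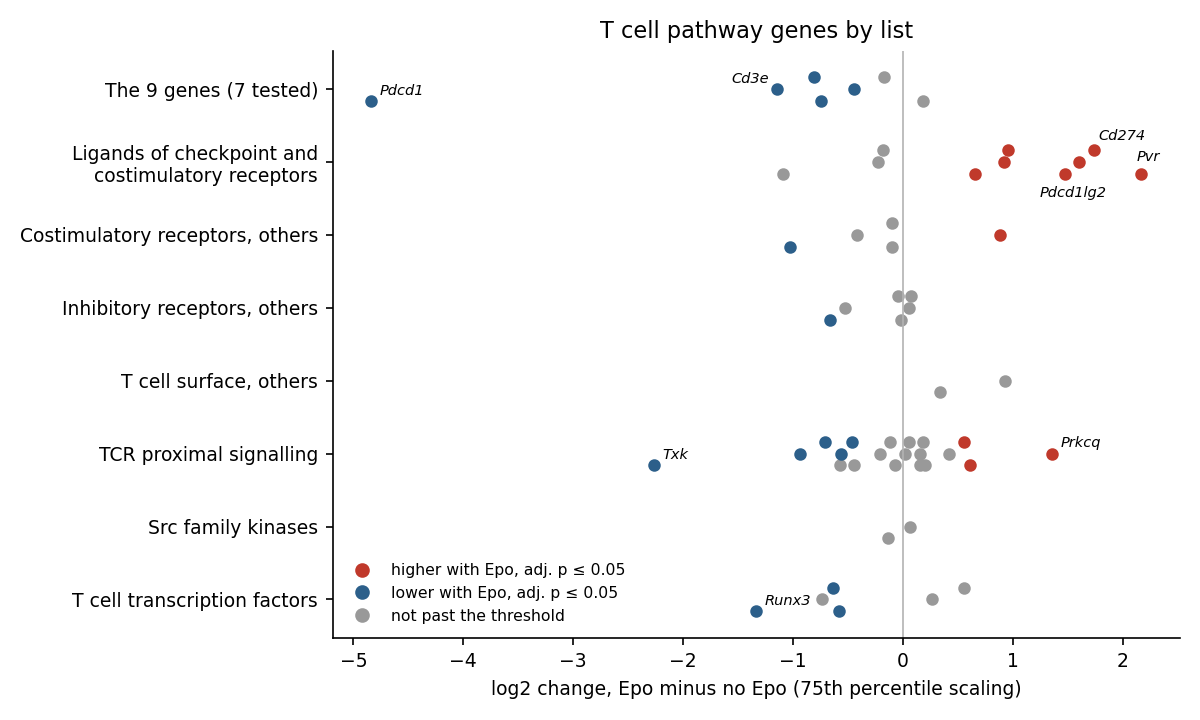
Log2 change (Epo minus no Epo, scaled to the 75th percentile) of the genes tested in each list, in red or blue where the limma adjusted p is at most 0.05 and grey otherwise; Pdcd1 and Txk are drawn at their fitted values although they have only a bound. Of the 10 ligand genes 7 lie to the right in red, and Pdcd1 lies farthest to the left.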

How the data were processed

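Total RNA (200 ng) of 4 samples, 2 per group, was labelled with Cy3 and hybridised to 4 mouse arrays on 1 slide. Per the file headers, the deposited intensity values come from Agilent Feature Extraction 10.1.1.1, whose processed intensity is corrected for background and spatial trends and not scaled between arrays. The files also hold the detection and outlier flags. Per the submitters' processing notes limma was used, with no role given.

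The log2 processed intensity of 59305 gene spots was set to each array's 75th percentile. Outlier spots were left out (9 probes lost), spots of 1 probe were averaged, and a probe counted as detected when most of its spots were well above background. Probes detected on both arrays of a group were kept, and where a gene had several, the brightest on average stood for it. Symbols were updated through RefSeq (GRCm38.p6): accessions named 26413 of 55681 probes, symbols 3859 and synonyms 733.

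Epo was compared with no Epo in limma 3.58.1 (R 4.3.3; lmFit and eBayes, two-sided, Benjamini-Hochberg over 17554 genes, threshold 0.05), with 2 residual and 4.57 total degrees of freedom. The p-values measure the spread between these samples, except without scaling, where they followed the size of the change alone. The steps were tested on simulated data.

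All 9 genes and 11 probes are described. From each other list the rule names at most 2 called rises and 2 called falls (with none called, the 2 genes of smallest p), and it adds the 3 nearest profiles. Genes and lists were chosen with earlier results of these data known. The alternatives cover background, scaling, filter, probe choice, variance prior, replicate block and leaving out each array.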

Additional observations from a re-analysis of the deposited data

How the results depend on the processing

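The scaling changed most of the calls. Without scaling the count of genes called lower fell to 1, against 5 with it, and 1 was called higher, Thy1 at 0.92. Cd3e, Cd4 and Lck then lay at -0.40, -0.06 and 0.00 with no call, and Cd3d and Cd28 turned to 0.30 and 0.58. With quantile normalization Cd3d lost its call at -0.42 and Cd28 lay at 0.11. Without a filter on dim probes limma called 0 of 36312 genes (7148 at an unadjusted p under 0.05) and so 0 of the 9. The changes of Cd3d, Cd3e, Cd4, Lck and Pdcd1 were there the same as in the filtered fit, at -0.45, -1.14, -0.81, -0.75 and -4.84. Cd3d was also not called, at -0.45, with each kept probe tested on its own or with the trended robust prior.

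Leaving out 1 array gave 2 to 4 genes called lower. Cd3d ran from -0.48 to -0.41, Cd4 from -0.91 to -0.71, Lck from -0.77 to -0.73 and Cd28 from -0.39 to 0.05. Cd3e ran from -1.36 to -0.92 and Pdcd1 from -5.10 to -4.57, and both were called each time. The same 7 ligands were called higher under 9 alternatives that keep all arrays, and 0 without the filter. Of these 9, the one without scaling called 46.9% of all genes higher. With some single arrays left out fewer of the 7 were called, as over all genes.

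The design text speaks of 2 experiments, and the titles number the samples in each group. Across genes, the deviations of samples sharing a number correlated at 0.386 (genes are no independent replicates). With the replicate number as a block (1 residual degree of freedom fewer) 5 of the 9 genes were again called lower, while the calls over all genes numbered 3498 higher and 4069 lower, against 2302 and 2502. Arrays limit what can be seen of Cd3g and Cd27, whose signals did not stand clear of background.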

Other observations

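Markers of other blood cells were read in the same fit. Without scaling 46.9% of all genes were called higher and 2.07% lower. Of 14 myeloid progenitor markers tested 3 fell and 0 rose, beside 14.3% and 13.1% of all genes. With 1 array left out fewer fell, as over all genes. With the replicate block 7 fell, beside 4069 of all 17554 genes. The median log2 change was -0.30, with Csf1r at -0.79 and Cebpa at -0.74 among the falls. Without scaling they lay at -0.04 and 0.01, and 3 markers of the list were called higher. Of 5 mast cell and basophil markers 1 fell, Hdc at -0.88, and 0 rose, and without scaling Hdc lay at -0.13 with no call. Of 4 macrophage and dendritic cell markers 1 rose, Adgre1 at 1.03, and 0 fell, and without scaling all 4 were called higher. Of 3 erythroid markers 2 fell, Epor at -1.59 and Gata1 at -0.68, the second at 0.07 without scaling.

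Genes of other lymphoid cells moved in part. Of 3 B cell markers tested 2 fell and 0 rose, beside 14.3% and 13.1% of all genes. The falls were Cd79b at -0.77 and Cd22 at -0.74, which lay at -0.02 and 0.00 without scaling. With 1 array left out both calls were lost, except without replicate 1 of the group without Epo. Calls over all genes were then fewer too. Cd79a, Ms4a1 and Pax5, which also mark B cells, were detected on no array. Of 4 NK cell markers Gzmb, which encodes granzyme B, fell by 1.18 (limma adjusted p 0.00784), and lay at -0.44 without a call where arrays were not scaled. Il2rb was called higher at 0.67 but was not above background on either array without Epo, and it lay at -0.31 under 1 alternative. The summed scaled signal of the B cell list was 942.5 and 989.9 with Epo, against 1414 and 1722 without Epo. That of the NK cell list was 22780 and 27160 with Epo, against 34660 and 44170 without Epo. Most of the B cell sum was Cd79b, and most of the NK cell sum was Nkg7, named after its values were seen. Nkg7 was not called (log2 change -0.61, limma adjusted p 0.0793). Before scaling its intensity was 23900 and 37900 with Epo, against 22600 and 33400 without Epo. The part of these lists in the falls of Cd3e, Cd4, Lck and Pdcd1 was not tested.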
